A study of Mus musculus with 8 samples.

Results

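The insulin-like growth factor (IGF) genes described here are the ligand gene Igf1, the receptor genes Igf1r and Igf2r, and the binding protein genes Igfbp2, Igfbp3, Igfbp4, Igfbp5, Igfbp6 and Igfbp7. They were chosen by name, as every row of the non-normalized table that carries one of these 9 symbols. This gave 14 of the table's 25697 probes and 9 of its 18138 gene names. Of these probes 13 passed a detection filter. All 9 genes entered the tests, among 9541 genes in all, each through its brightest such probe on average.

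The measurements come from mouse embryonic fibroblasts (MEFs), cultured connective tissue cells of embryonic origin, hybridised to single-colour Illumina bead arrays. The 4 groups of 2 arrays are TICAM knockout MEFs with c-di-GMP, wild-type MEFs with c-di-GMP, TICAM knockout MEFs with DMSO and wild-type MEFs with DMSO. The series text calls the deleted gene TICAM1, which encodes TRIF, an adaptor of Toll-like receptor signalling. The bacterial messenger c-di-GMP, which mammalian cells sense through STING, was transfected at 8 µg/ml with a lipofection reagent over 30 min, and the other cells were given as much DMSO. All cells grew in medium with 10% serum, and RNA was taken 4 h after transfection. The labels do not say how many embryos or lines stand behind a genotype, so genotype and cell preparation cannot be told apart. They also do not say whether the arrays of a group were separate cultures, so the spread that the p-values rest on may be technical.

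IGF1 and IGF2 are secreted growth factors that signal through IGF1R, a receptor tyrosine kinase that drives growth and survival. IGF2R, which also carries mannose-6-phosphate tagged enzymes to lysosomes, takes up IGF2 for breakdown and does not signal as IGF1R does. The binding proteins are secreted, hold IGFs in the medium or at the matrix, and release them when proteases cut them. Fibroblasts are a known source of several of them.

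Between the genotypes, 4 binding protein genes differed, and they are the reason for showing these stretches of sequence. Igfbp3 and Igfbp5 were higher in knockout cells, and Igfbp2 and Igfbp7 were lower. Igfbp2 and Igfbp5 are neighbouring coding genes on chromosome 1. The 250 bases before the start of each of the 4 genes are given below from RefSeq (GRCm38.p6), 5′ to 3′ on the gene's own strand, with capitals for the GC-box core GGGCGG on either strand. All 9 genes matched the promoter table by symbol, and Igfbp2 has more than 1 start in it, of which the upstream one is shown.
Igfbp2: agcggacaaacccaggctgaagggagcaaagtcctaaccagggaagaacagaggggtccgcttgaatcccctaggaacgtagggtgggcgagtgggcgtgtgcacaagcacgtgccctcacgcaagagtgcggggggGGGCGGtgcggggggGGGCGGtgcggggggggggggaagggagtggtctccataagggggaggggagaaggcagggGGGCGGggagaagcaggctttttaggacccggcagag
Igfbp3: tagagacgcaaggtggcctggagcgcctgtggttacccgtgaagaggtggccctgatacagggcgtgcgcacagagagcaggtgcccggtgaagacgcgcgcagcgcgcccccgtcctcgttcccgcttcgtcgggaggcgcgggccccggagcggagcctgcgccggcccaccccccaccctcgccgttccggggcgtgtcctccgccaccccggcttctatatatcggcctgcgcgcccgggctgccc
Igfbp5: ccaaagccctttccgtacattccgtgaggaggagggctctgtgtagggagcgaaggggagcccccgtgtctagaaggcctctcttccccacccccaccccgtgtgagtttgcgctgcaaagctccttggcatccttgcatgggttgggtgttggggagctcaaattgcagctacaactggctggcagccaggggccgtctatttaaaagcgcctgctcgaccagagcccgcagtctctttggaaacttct
Igfbp7: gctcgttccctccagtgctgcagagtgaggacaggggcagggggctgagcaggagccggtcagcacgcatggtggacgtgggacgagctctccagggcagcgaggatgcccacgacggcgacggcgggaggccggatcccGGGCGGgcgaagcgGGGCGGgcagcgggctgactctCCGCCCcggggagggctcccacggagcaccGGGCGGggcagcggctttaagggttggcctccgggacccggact
These windows lie at chr1:72824230-72824479 (+ strand) for Igfbp2, chr11:7213924-7214173 (- strand) for Igfbp3, chr1:72874866-72875115 (- strand) for Igfbp5 and chr5:77408046-77408295 (- strand) for Igfbp7. The GC-box core occurred 3 times for Igfbp2 and 4 times for Igfbp7, and 0 times for Igfbp3 and Igfbp5. Before the other Igfbp2 start, which is not shown, it occurred 0 times, so the count for Igfbp2 depends on the start taken. Of 32851 promoters in the table, 32.7% held it within the same 250 bases before the start. The other motifs searched on both strands were the TATA box TATAAA, held by 12.4% of promoters, and the interferon-response core of GAAA, any 2 bases and GAAA, held by 2.98%. Neither overlaps the GC-box core, and neither was found in the windows of these 4 genes. In the other genes TATAAA occurred once in each of Igfbp4 and Igfbp6, and GGGCGG 2 times in Igf1r and 3 times in Igf2r. A match is a string of letters, and its absence here says nothing about any factor.

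All values below are log2 intensity after background correction and quantile normalization, unless a raw signal is named. Of the 8 arrays, 7 had a mean raw signal of 252.6 to 648.9, with 11254 to 11657 probes detected (detection p under 0.05). The second knockout DMSO array was weak, with a mean signal of 225.9 and 6468 probes detected, and correlated with its partner at 0.822 across genes, against 0.980 to 0.992 within the other groups. All comparisons were repeated without it, with the spread of the single knockout DMSO array that is left taken from the other groups. The knockout's own gene, Ticam1, has 2 probes. The one detected on 3 of the 8 arrays read 124.6 and 157.5 (raw signal) in knockout cells against 90.7 and 157.2 in wild-type cells under c-di-GMP, and 164.5 and 167.9 in knockout cells against 156.1 and 109.3 in wild-type cells under DMSO. The other was detected on 0 arrays. Where the probes lie relative to the deletion is not known, so they check no label. Of 10 fibroblast markers 9 were on the array, and all 9 were detected on every array but the weak one, where 7 were. Of 6 leukocyte markers, 4 were detected on every wild-type array and 0 to 2 on the knockout arrays.

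The knockout's fibroblasts had more Igfbp3 and Igfbp5 RNA and less Igfbp2 and Igfbp7 RNA than wild-type cells under c-di-GMP. These are 4 of the 9 genes, at an adjusted p under 0.05 in limma with Benjamini-Hochberg adjustment over all genes tested, where 14% of all 9541 genes passed. The same 4 passed in the same directions under DMSO, where 12.7% of all genes passed. Of these, Igfbp2 and Igfbp5 passed the detection filter only through the genotype where they were higher. All 4 DMSO calls were lost with array weights (adjusted p = 0.122 to 0.416), with only the groups compared in the fit (0.0913 to 0.302) and with median scaling (0.184 to 0.543). Median scaling also ended the 4 calls under c-di-GMP (0.0788 to 0.81). The ligand gene, both receptor genes, Igfbp4 and Igfbp6 did not pass in either comparison with all 8 arrays. These genotype comparisons use different arrays, but share the normalization, the detection filter, the choice of probe and the estimate of the spread. One is therefore not an independent repeat of the other. RNA from bulk cultures cannot tell fewer cells of a type from less RNA per cell.

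**Figure D1:**
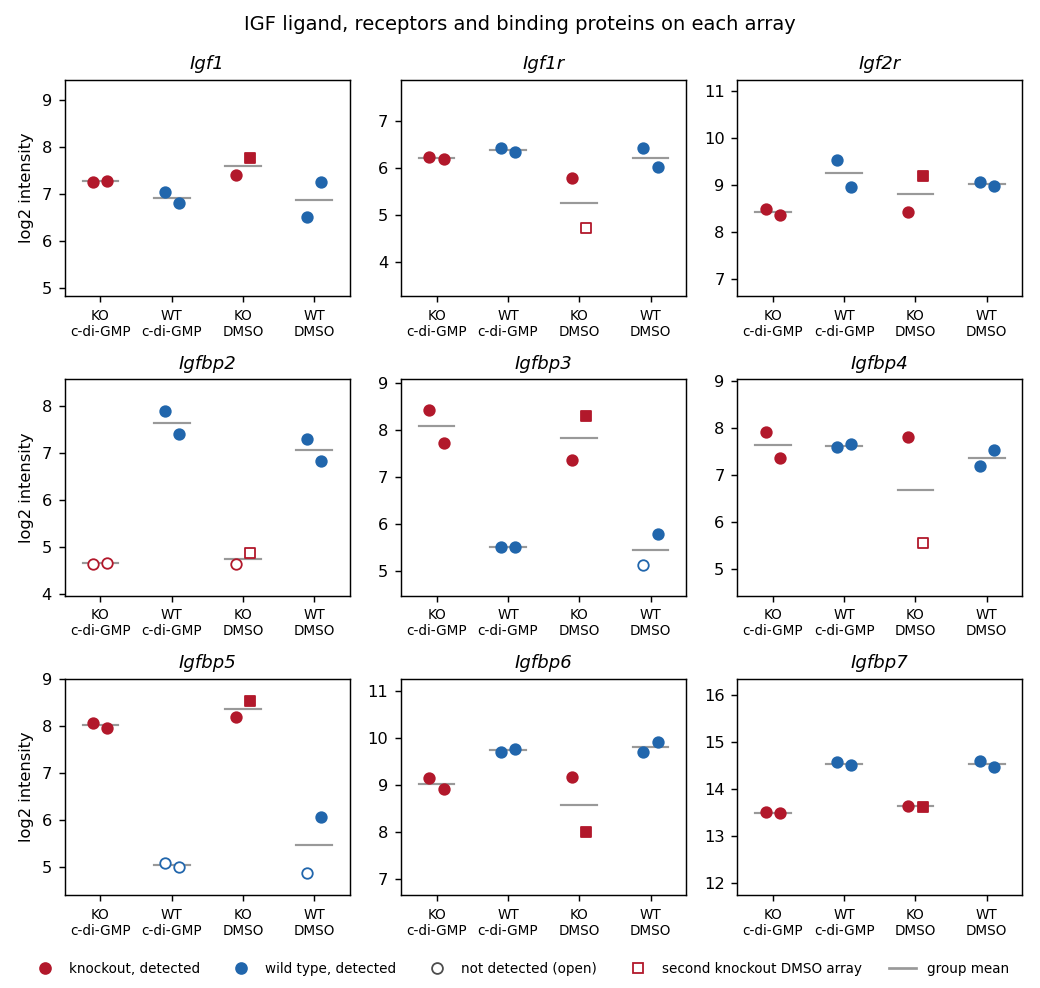
Log2 intensity of the tested probe of each gene (vertical axis) on each of the 8 arrays, by group, with the mean of each group as a line, filled symbols where the probe was detected and a square for the second knockout DMSO array. Igfbp3 and Igfbp5 lie higher on all 4 knockout arrays than on all 4 wild-type arrays, and Igfbp2 and Igfbp7 lie lower. Of the genes that did not pass, Igf1 also lies higher, by a narrow margin, and Igfbp6 lower. Within a treatment, 72.3% of all genes under c-di-GMP and 54.6% under DMSO had no overlap between the genotypes. The share of all genes without overlap over all 4 arrays of each genotype was not computed.

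Igfbp2, which encodes a binding protein abundant in fetal tissues, read 4.64 and 4.66 in knockout cells and 7.89 and 7.39 in wild-type cells under c-di-GMP. Under DMSO it read 4.63 and 4.86 in knockout cells and 7.28 and 6.81 in wild-type cells. It was detected on all 4 wild-type arrays and on 0 of the 4 knockout arrays, and so passed the detection filter through wild-type cells alone. The groups did not overlap, and the knockout values are readings at background. The fitted differences were -2.99 ± 0.30 under c-di-GMP (adjusted p = 0.0013) and -2.30 ± 0.30 under DMSO (adjusted p = 0.00469). As an undetected gene has only a bound, the ratio was also taken against the lowest detected signal of each dim array, or the gene's own signal where that was higher. On that basis Igfbp2 was at least 4.73-fold lower in knockout cells under c-di-GMP and at least 1.52-fold lower under DMSO, or at least 3.22-fold lower under DMSO without the weak array. Its other probe lay at 4.82 and 4.72 in knockout cells against 6.39 and 6.71 in wild-type cells under c-di-GMP, again undetected on the knockout arrays. By the same bound that probe was at least 2.22-fold lower in knockout cells under c-di-GMP and at least 1.19-fold lower under DMSO, or at least 2.53-fold lower under DMSO without the weak array. With every detected probe tested as its own feature it passed under both treatments, as did 11.9% of probes under c-di-GMP and 10.6% under DMSO, but it too passed the detection filter through wild-type cells alone. The DMSO call of Igfbp2 was lost without the first wild-type DMSO array (-2.07, adjusted p = 0.0626).

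Igfbp5, whose protein binds the extracellular matrix of fibroblasts and bone, read 8.07 and 7.96 in knockout cells and 5.09 and 5.00 in wild-type cells under c-di-GMP. Under DMSO the readings were 8.19 and 8.54 in knockout cells and 4.87 and 6.07 in wild-type cells. The 8.54 is from the weak array, whose lowest detected level was 7.53, and without that array the DMSO difference was 2.72. Igfbp5 was detected on all 4 knockout arrays and on 1 of the 4 wild-type arrays, the second with DMSO. It thus passed the detection filter only through knockout cells, where it is high. The differences were 2.97 ± 0.41 under c-di-GMP (adjusted p = 0.00486) and 2.89 ± 0.41 under DMSO (adjusted p = 0.00641). Against the bound, Igfbp5 was at least 5.95-fold higher in knockout cells under c-di-GMP. Its neighbour Igfbp2 thus differed in the opposite direction. The c-di-GMP call was lost when wild-type c-di-GMP array 1 was left out (adjusted p = 0.05004) or either knockout c-di-GMP array was (adjusted p = 0.0579 without array 1 and 0.0502 without array 2), at differences of 2.92 to 3.02.

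Igfbp3, which encodes the main IGF carrier of blood plasma, read 8.44 and 7.74 in knockout cells and 5.51 and 5.52 in wild-type cells under c-di-GMP. Its DMSO readings were 7.38 and 8.32 in knockout cells and 5.13 and 5.79 in wild-type cells, where the lower reading was not detected. The 8.32 is from the weak array, whose lowest detected level was 7.53. All knockout readings lay above all wild-type readings. The differences were 2.58 ± 0.43 under c-di-GMP, a 5.97-fold ratio (adjusted p = 0.0102), and 2.39 ± 0.43 under DMSO, a 5.24-fold ratio (adjusted p = 0.0162). The wild-type c-di-GMP readings lay just above the lowest detected levels of their arrays, 5.44 and 5.45. Both ratios are thus taken against readings near or at background. Without the weak array the DMSO difference was 1.92 ± 0.36 (adjusted p = 0.00791). The c-di-GMP call was lost when knockout c-di-GMP array 1 was left out (adjusted p = 0.101) or either wild-type c-di-GMP array was (0.0828 without array 1 and 0.0756 without array 2), and the DMSO call when either wild-type DMSO array was (0.135 without array 1 and 0.0722 without array 2). Igfbp1, the coding gene beside it on chromosome 11, did not pass the detection filter.

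Igfbp7, which encodes a secreted matrix protein that binds IGFs only weakly, read 13.51 and 13.48 in knockout cells and 14.57 and 14.51 in wild-type cells under c-di-GMP. Under DMSO it read 13.64 and 13.63 in knockout cells and 14.61 and 14.48 in wild-type cells. The SD within groups was 0.01 to 0.09 (n = 2), and the groups did not overlap. The differences were -1.04 ± 0.23 under c-di-GMP (adjusted p = 0.0287) and -0.91 ± 0.23 under DMSO (adjusted p = 0.0485). The raw signals were 13907.9 and 15325.4 in knockout cells against 17577.7 and 29286.7 in wild-type cells under c-di-GMP, which did not overlap before normalization either. Under DMSO the raw signals were 16984.3 and 1500.5 in knockout cells against 30786.8 and 17506.6 in wild-type cells. The 1500.5 is from the weak array, so the SD of 0.01 in that group describes the values only after normalization. The calls of Igfbp7 are the least firm of the 4, since leaving out any 1 of 6 of the 8 arrays raised its adjusted p above 0.05 in both comparisons, up to 0.225 under c-di-GMP and 0.277 under DMSO. Only the 2 knockout DMSO arrays could be left out without losing them, and the differences stayed between -1.08 and -0.85. A further Igfbp7 probe was not above background on any of the 8 arrays.

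Of the genes that did not pass, Igf2r read 8.49 and 8.34 in knockout cells and 9.52 and 8.96 in wild-type cells under c-di-GMP. Its difference of -0.82 ± 0.35 had an adjusted p of 0.182, or 0.0186 without the weak array, where 44.4% of all genes passed. Its other probe, at 7.92 and 7.88 in knockout cells against 7.93 and 7.99 in wild-type cells, differed by -0.06 (adjusted p = 0.939), so the probes disagree in size. Under DMSO the tested probe of Igf2r read 8.42 and 9.18 in knockout cells and 9.05 and 8.96 in wild-type cells, which overlap (-0.20 ± 0.35, adjusted p = 0.709). There the other probe was lower in knockout cells without overlap, at 7.47 and 6.75 against 8.11 and 8.09 in wild-type cells (-0.99 ± 0.31, adjusted p = 0.0895). The 6.75 is an undetected reading on the weak array, without which the difference was -0.64.

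Igfbp6, whose protein prefers IGF2 over IGF1, showed a like pattern at 9.14 and 8.92 in knockout cells against 9.71 and 9.76 in wild-type cells under c-di-GMP (-0.71 ± 0.40, adjusted p = 0.316, and 0.0142 without the weak array). Its DMSO readings were 9.16 and 8.01 in knockout cells and 9.69 and 9.91 in wild-type cells. The difference of -1.21 ± 0.40 did not pass (adjusted p = 0.0946), nor did the -0.64 ± 0.21 without the weak array (adjusted p = 0.0623, where 28.1% of all genes passed). The lower of the knockout DMSO readings, 8.01, is from that array.

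For Igf1r, the signalling receptor, knockout cells with c-di-GMP read 6.24 and 6.20, against 6.43 and 6.34 in wild-type cells (-0.17, adjusted p = 0.848). The 95% interval of this difference ran from -1.08 to 0.75. Under DMSO the readings were 5.80 and 4.74 in knockout cells and 6.43 and 6.02 in wild-type cells, a difference of -0.96 ± 0.38 (adjusted p = 0.149) that was -0.43 ± 0.23 without the weak array. The 4.74 on that array was not a detected reading.

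Igf1 itself was detected on all 8 arrays and read 7.26 and 7.29 in knockout cells, against 7.05 and 6.81 in wild-type cells under c-di-GMP (0.35 ± 0.33, adjusted p = 0.572). Under DMSO it read 7.42 and 7.77 in knockout cells and 6.51 and 7.26 in wild-type cells (0.71 ± 0.33, adjusted p = 0.194). The 7.77 is from the weak array, whose lowest detected level was 7.53. Knockout readings lay above the wild-type ones in both, without passing. The dimmer Igf1 probe, detected on 3 of 8 arrays, pointed the other way at -0.37 under c-di-GMP (adjusted p = 0.629). Under DMSO it was undetected on both knockout arrays and read lower there, by -0.52 with all arrays and by -0.20 without the weak one.

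Igfbp4, whose protein inhibits IGF action until the protease PAPP-A cuts it, read 7.91 and 7.36 in knockout cells and 7.58 and 7.65 in wild-type cells under c-di-GMP. These overlap (0.02 ± 0.68, adjusted p = 0.994). Its dimmer probe did not overlap, at 6.19 and 5.74 in knockout cells against 5.38 and 5.16, both undetected, in wild-type cells, which makes it at least 1.43-fold higher in knockout cells without passing (adjusted p = 0.315). Under DMSO the tested probe read 7.81 and 5.56 in knockout cells and 7.19 and 7.53 in wild-type cells, where the 5.56 is an undetected reading on the weak array. With that array the difference was -0.68 ± 0.68 (adjusted p = 0.512), and without it 0.45 ± 0.28 (adjusted p = 0.279), so its sign rests on that array.

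**Figure D2:**
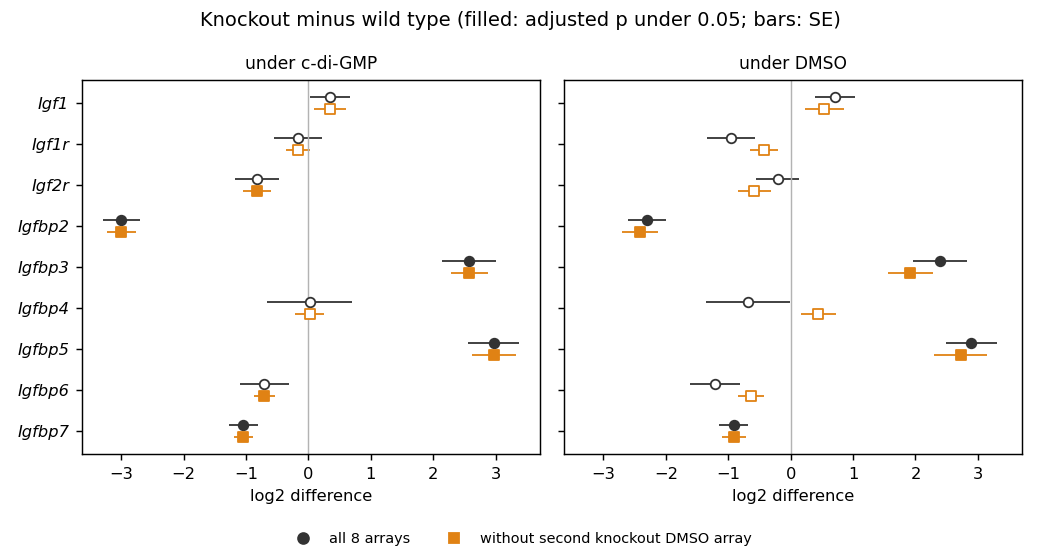
Log2 difference, knockout minus wild type, for each gene (horizontal axis) under c-di-GMP and under DMSO, with all 8 arrays (circles) and without the second knockout DMSO array (squares). Bars are standard errors, and filled symbols have an adjusted p under 0.05. Igfbp2, Igfbp3, Igfbp5 and Igfbp7 are filled in both panels and both fits, while Igf2r and Igfbp6 are filled only under c-di-GMP without that array.

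Counted by overlap rather than by test, 3 of the 9 genes were higher and 5 lower on both knockout arrays than on both wild-type arrays under c-di-GMP, with Igfbp4 overlapping. Over all genes, 72.3% did not overlap in that comparison. Under DMSO 3 were higher and 4 lower, against 54.6% of all genes without overlap. The median difference of the 9 genes was -0.17 under c-di-GMP and -0.68 under DMSO, beside 0.10 and -0.11 over all genes tested. Without the weak array the DMSO medians were -0.43 for the 9 genes and 0.05 over all genes.

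Leukocyte marker genes moved with the genotype. Their summed level was 7.42 to 7.66 (log2) on the knockout arrays and 11.29 to 11.71 on the wild-type arrays. Lyz2, which encodes the lysozyme of macrophages, read 4.80 to 5.03 in knockout cells and 10.67 to 11.22 in wild-type cells, and Adgre1, which encodes the macrophage protein F4/80, read 4.55 to 4.67 in knockout cells and 9.11 to 9.75 in wild-type cells. Cd68 and Csf1r were the others detected in wild-type cells, and Ptprc and Itgam were not detected on any array. Summed neural markers lay at 8.64 to 8.70 in knockout cells and 6.89 to 7.53 in wild-type cells, with 0 or 1 of 4 detected per array. Summed markers of cartilage, fat and bone lay at 8.59 to 9.39 in knockout cells and 8.30 to 8.64 in wild-type cells. The 9.39 of this list is from the weak array, and the other knockout arrays lay at 8.59 to 8.62. Within that list Pparg, the fat cell regulator, was undetected in knockout cells and read 7.03 to 7.71 in wild-type cells, while Sox9, the cartilage regulator, read 7.40 to 7.82 in knockout cells and 5.02 to 5.55 in wild-type cells. Summed fibroblast markers lay at 14.84 to 15.72 in knockout cells and 15.02 to 15.32 in wild-type cells. The 15.72 is from the weak array, and the other knockout arrays, at 14.84 to 14.96, lay below every wild-type array. Single fibroblast markers split by genotype. Of the 9, 3 were higher on all knockout arrays than on all wild-type arrays (Thy1, Pdgfra and Dcn), 2 were lower (Col1a1 and Col3a1) and 4 overlapped. The receptor gene Pdgfra read 10.28 to 11.62 in knockout cells and 7.17 to 8.12 in wild-type cells. The collagen gene Col1a1 read 10.06 to 11.17 in knockout cells and 12.71 to 13.54 in wild-type cells. None of the endothelial, epithelial or muscle markers separated the genotypes. The part of these cell type markers in the Igfbp results was not tested.

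For c-di-GMP against DMSO, none of the 9 genes passed the threshold in either genotype. In knockout cells limma called 0 of the 9 and 0% of all 9541 genes (254 at an unadjusted p under 0.05, Igf1r among them). In wild-type cells it called 0 of the 9 and 0.597% of all genes. There 0 of the 9 had an unadjusted p under 0.05, beside 641 of all genes. Both results have wide intervals with 2 arrays per group, and a p above the threshold does not show that the levels were alike. By overlap alone, 1 gene was higher (Igf1r) and 3 were lower (Igf1, Igfbp5 and Igfbp7) on both c-di-GMP arrays than on both DMSO arrays of knockout cells, where 33.9% of all genes did not overlap. In wild-type cells 2 were higher (Igfbp2 and Igfbp4) and 0 lower, beside 49.5% of all genes without overlap.

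**Figure D3:**
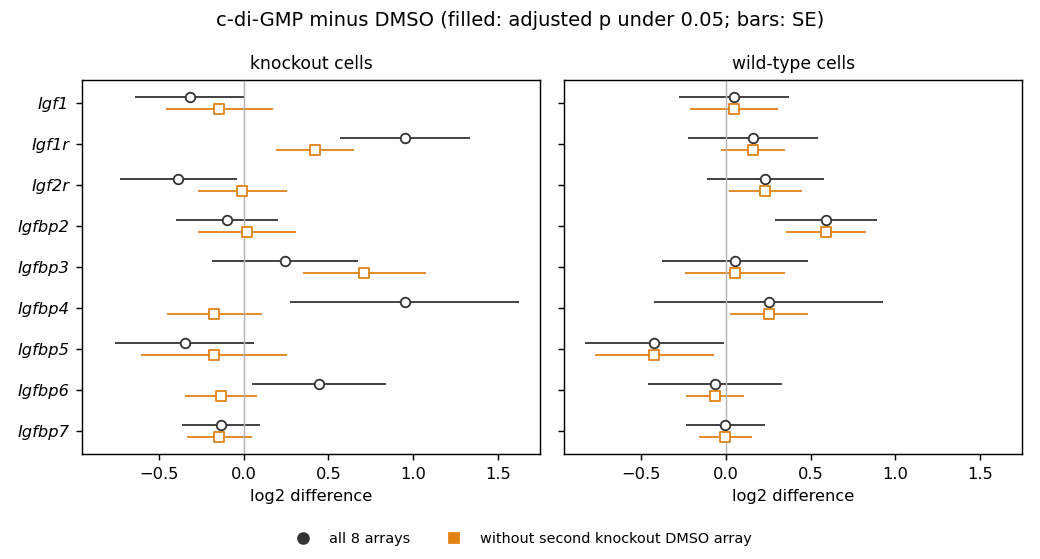
Log2 difference, c-di-GMP minus DMSO, for each gene (horizontal axis) in knockout and in wild-type cells, with all 8 arrays (circles) and without the second knockout DMSO array (squares), and standard errors as bars. No symbol is filled, that is, no gene had an adjusted p under 0.05, and the values for Igf1r and Igfbp4 in knockout cells, 0.95 each, shrink to 0.42 and change sign to -0.17 without that array. Igfbp2 was undetected in knockout cells under both treatments.

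Among receptors and ligand, Igf1r differed by 0.95 ± 0.38 in knockout cells (adjusted p = 0.529) and by 0.16 ± 0.38 in wild-type cells (adjusted p = 1.00). The knockout value was 0.42 ± 0.23 without the weak array. Igf2r differed by -0.39 ± 0.35 in knockout cells, or -0.01 without the weak array, and by 0.23 ± 0.35 in wild-type cells. For Igf1 the response was -0.32 ± 0.33 in knockout cells and 0.05 ± 0.33 in wild-type cells.

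Among binding proteins, the largest response in wild-type cells was that of Igfbp2 at 0.59 ± 0.30 (adjusted p = 0.879, 95% interval -0.12 to 1.31). Both of its c-di-GMP readings lay above both DMSO readings, but its other probe moved by -0.15. In knockout cells Igfbp2 was undetected under both treatments, so no response can be given. Igfbp5 differed by -0.35 ± 0.41 in knockout cells and by -0.42 ± 0.41 in wild-type cells, where it was detected on 1 of 4 arrays. Igfbp3 differed by 0.24 ± 0.43 in knockout cells, or 0.71 ± 0.36 without the weak array, and by 0.05 ± 0.43 in wild-type cells. Igfbp7 differed by -0.14 ± 0.23 in knockout cells and by less than 0.01 in wild-type cells, where its interval was -0.55 to 0.55. For Igfbp4 the values were 0.95 ± 0.68 in knockout cells and 0.25 ± 0.68 in wild-type cells, and for Igfbp6 0.44 ± 0.40 in knockout cells and -0.06 ± 0.40 in wild-type cells. Without the weak array both knockout values turned negative, at -0.17 for Igfbp4 and -0.13 for Igfbp6.

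The difference between the responses, knockout minus wild type, was tested itself and also passed for 0 of the 9 genes, against 0.0419% of all genes. This is the same quantity as the change of the genotype difference between treatments. It was 0.19 ± 0.61 for Igfbp3 (adjusted p = 0.903) and -0.13 ± 0.33 for Igfbp7 (adjusted p = 0.872). Without the weak array these were 0.66 ± 0.47 (adjusted p = 0.658) and -0.14 ± 0.25 (adjusted p = 0.876). For Igf1r the value was 0.79 ± 0.54 with all arrays (adjusted p = 0.71) and 0.26 ± 0.30 without the weak one (adjusted p = 0.793). No value is given for Igfbp2 or Igfbp5, since Igfbp2 was undetected in knockout cells and Igfbp5 in wild-type cells under c-di-GMP. Unadjusted p was under 0.05 for 0 of the 9 genes and for 506 of all genes.

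Of 42 further genes of the IGF pathway, 39 were on the array and 27 passed the detection filter. Between knockout and wild-type cells under c-di-GMP, 3 of the 27 were higher and 1 lower, beside 5.85% of all genes higher and 8.14% lower. Under DMSO 3 were higher and 0 lower, beside 5.24% and 7.48% of all genes. The list's median difference was 0.16 under c-di-GMP and -0.10 under DMSO, against 0.10 and -0.11 over all genes.

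The ligand gene Igf2 had the largest genotype difference of the list under both treatments. It read 10.69 and 10.35 in knockout cells, against 4.77 and 5.37, both undetected, in wild-type cells under c-di-GMP. Under DMSO it read 10.55 and 10.40 in knockout cells and 5.52 and 5.95 in wild-type cells. It was at least 33.8-fold higher in knockout cells under c-di-GMP (adjusted p = 0.000137), and the difference under DMSO was 4.74 ± 0.32 (adjusted p = 0.000369). The knockout and wild-type groups did not overlap, the call was kept when any 1 array was left out, and leaving out the weak array gave 4.81 ± 0.32 under DMSO.

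Irs2, which encodes an adaptor that links the IGF1 and insulin receptors to phosphoinositide 3-kinase, read 8.34 and 8.28 in knockout cells and 4.85 and 5.19, both undetected, in wild-type cells under c-di-GMP. It was at least 7.31-fold higher in knockout cells (adjusted p = 0.000938). Its DMSO readings were 7.95 and 7.51 in knockout cells, where the 7.51 is an undetected reading on the weak array, and 6.15 and 6.64 in wild-type cells, a difference of 1.33 ± 0.31 (adjusted p = 0.0356). The DMSO call of Irs2 was lost with array weights (adjusted p = 0.361) and with only the groups compared in the fit (0.234). That DMSO call was lost when any 1 array other than the knockout DMSO ones was left out, at 1.09 to 1.58 (adjusted p = 0.0717 to 0.237), while the c-di-GMP call was kept. Pik3cb, a catalytic subunit of that kinase, read 8.14 and 8.40 in knockout cells and 6.28 and 5.88 in wild-type cells under c-di-GMP (2.18 ± 0.28, adjusted p = 0.00362). Under DMSO the readings were 8.12 and 8.49 in knockout cells and 6.41 and 6.39 in wild-type cells (1.90 ± 0.28, adjusted p = 0.0075). The DMSO call of Pik3cb was lost with array weights (adjusted p = 0.15) and with only the groups compared in the fit (0.113). Its c-di-GMP call was lost without knockout c-di-GMP array 2 (2.05, adjusted p = 0.057), and its DMSO call without wild-type DMSO array 1 (adjusted p = 0.0812) or 2 (0.0858).

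Foxo1, which encodes a transcription factor that the IGF pathway keeps out of the nucleus, had the lowest genotype difference of the list under c-di-GMP. It read 5.07 on both knockout arrays, undetected, and 7.33 and 7.14 in wild-type cells, at least 3.58-fold lower in knockout cells (adjusted p = 0.00225). Foxo1 passed the detection filter only through wild-type cells, since the first DMSO array was the only knockout array to detect it. Under DMSO the low end was Pik3r1, a regulatory subunit of phosphoinositide 3-kinase (-1.18 ± 0.31, adjusted p = 0.0521, and -1.47 ± 0.24, adjusted p = 0.00446, without the weak array). Without the weak array the list's counts were 5 higher and 5 lower under c-di-GMP, beside 23.8% of all genes higher and 20.6% lower, and 4 higher and 1 lower under DMSO, beside 14% and 14.1% of all genes.

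In the c-di-GMP comparisons 0 of the 27 passed in knockout cells, in wild-type cells or for the difference of responses. At an unadjusted p under 0.05 there were 1, 3 and 4 of them, beside 254, 641 and 506 of all 9541 genes. In knockout cells the list ran from -1.27 ± 0.44 for Pik3ca to 1.04 ± 0.65 for Pik3r2, both subunit genes of the kinase (adjusted p = 0.529 each). Both values move with the weak array, where Pik3r2 was undetected: without it Pik3ca differed by -0.60 and Pik3r2 by -0.04. In wild-type cells it ran from -1.38 ± 0.31 for Irs2 (adjusted p = 0.192) to 1.01 ± 0.25 for Foxo1 (adjusted p = 0.258). These also stood at the ends of the fitted difference of responses with all arrays. Without the weak array both passed in wild-type cells (Irs2 adjusted p = 0.0142, Foxo1 adjusted p = 0.0137), where 5.87% of all genes passed, and Foxo1 for the difference (adjusted p = 0.0416), where 0.87% did. Foxo1 was undetected on both knockout c-di-GMP arrays, so the size of its difference of responses is not given. Its fitted response in knockout cells did not pass with all arrays (adjusted p = 0.529). Against the knockout DMSO array left without the weak one, the c-di-GMP readings were at least 1.25-fold lower, a bound that was not tested. Irs2 was undetected on both wild-type c-di-GMP arrays, so its response there is at least 1.93-fold lower with c-di-GMP.

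**Figure D4:**
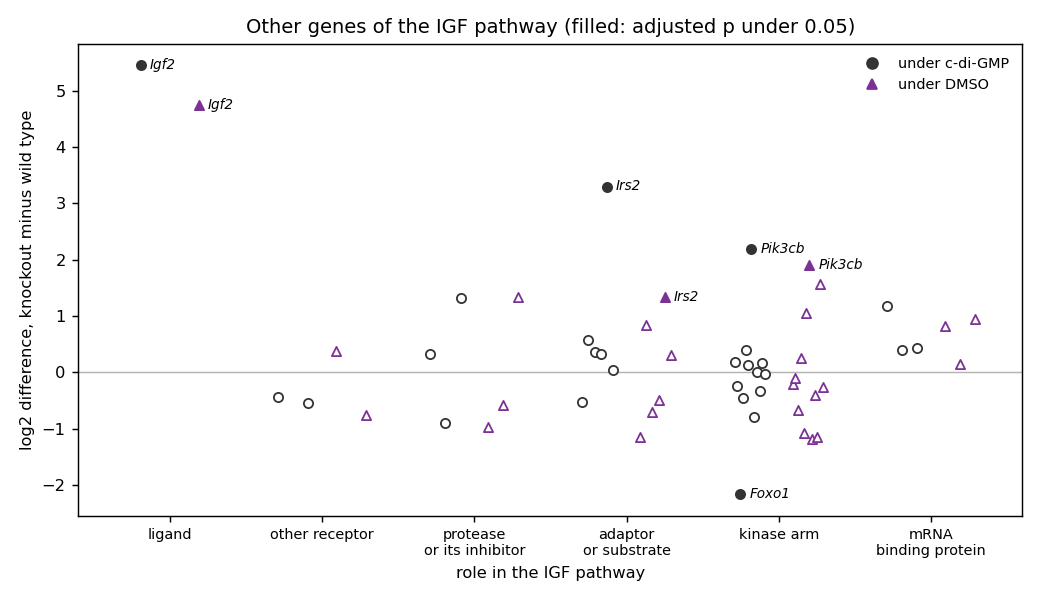
Log2 difference, knockout minus wild type (vertical axis), of the 27 tested genes of the IGF pathway list by role, under c-di-GMP (circles) and DMSO (triangles). Filled symbols have an adjusted p under 0.05. Igf2, Irs2 and Pik3cb are filled above 0 under both treatments, and Foxo1 is filled below 0 under c-di-GMP.

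For each of the 4 called binding protein genes, the most similar profiles were sought among all tested genes, by the root mean square difference over the 8 arrays after each gene's mean was subtracted. Closest to Igfbp2 were H2-T23 (0.152) and Rab38 (0.166), and closest to Igfbp3 were Mcm2 (0.289) and Mcm3 (0.306). Igfbp5 was nearest to Hapln4 (0.254) and Meox1 (0.287), and Igfbp7 to Ostm1 (0.0753) and Dok5 (0.0803). These distances are descriptions over 8 arrays that share their 4 groups. Rab38, Meox1 and Dok5 were detected on 4 of the 8 arrays, so parts of those profiles are readings at background.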

How the data were processed

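The authors deposited non-normalized probe intensity for the 8 arrays, with a detection p-value beside each signal per the file headers, and the submitters' processing notes name GenomeStudio 2010.2. A second table of theirs, with normalized linear intensity, served as an alternative. How background was treated before export is not stated in the labels or headers.

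Groups and replicate numbers come from the sample titles. Names were updated through the RefSeq table of GRCm38.p6: the match was exact for 20733 probes, through the gene number for 122 and through a synonym for 3872, 939 kept the name of the file, and 31 with a date for a name were left out. limma 3.58.1 (R 4.3.3) processed the signals with its neqc function (normexp through the detection p, taken to compare each probe with negative controls, offset 16, quantile normalization, log2). Probes with detection p under 0.05 on at least 2 arrays were kept (13008). The brightest probe on average stood for each gene (9541 genes, 2456 of them with more than 1 such probe). The linear model of limma gave each group its own mean (4 residual and 2.77 prior degrees of freedom), two-sided tests and Benjamini-Hochberg adjustment over all genes, threshold 0.05. Errors are SE, with n = 2 arrays per group, whose number limits the precision. The script was tested on simulated data.

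Members, lists and tests were chosen with earlier results of these data known. All members are named. Of the pathway list, called genes and those at the ends of its range are named, and for each called member its 2 nearest genes. Alternatives were the scaling, the background correction, the authors' table, the detection filter, the probe rule, array weights, the replicate block, only the groups compared, and leaving out each array. Replicate 1 arrays of different groups deviated together at correlations of -0.03 to 0.06 only, so the numbers were not taken to pair samples.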

Additional observations from a re-analysis of the deposited data

Results flagged for a closer look

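A probe of Igf2r other than the tested one (ILMN_2931096) moved in opposite directions in the genotypes. It read 7.92 and 7.88 under c-di-GMP against 7.47 and 6.75 under DMSO in knockout cells, and 7.93 and 7.99 under c-di-GMP against 8.11 and 8.09 under DMSO in wild-type cells. Every c-di-GMP array lay above every DMSO array in knockout cells and below in wild-type cells. Over all genes, 33.9% did not overlap between the treatments in knockout cells and 49.5% in wild-type cells, in either direction. The difference of the responses, knockout minus wild type, was 0.93 ± 0.44, and by limma's interaction term it did not pass (adjusted p = 0.711). The tested Igf2r probe had a difference of -0.62 ± 0.49, of the opposite sign.

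The less bright probe of Igfbp4 (ILMN_2694955) showed the same pattern, at 6.19 and 5.74 under c-di-GMP against 5.56 and 4.59 under DMSO in knockout cells, and 5.38 and 5.16 under c-di-GMP against 5.46 and 5.64 under DMSO in wild-type cells. Both wild-type c-di-GMP readings were undetected, so the fall there is only a bound of at least 1.08-fold. The fitted difference of responses, 1.17, rests on them and did not pass (adjusted p = 0.711). For both probes the lower knockout DMSO reading is an undetected one on the second knockout DMSO array, the weak array. Without that array the differences were 0.57 for the Igf2r probe and 0.68 for the Igfbp4 probe, and the knockout c-di-GMP readings still lay above the remaining DMSO reading.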

How the results depend on the processing

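The 4 genotype calls (Igfbp2, Igfbp3, Igfbp5, Igfbp7) kept their direction in each alternative run. Under c-di-GMP the count of 4 became 0 with median scaling and ran from 1 to 6 when 1 array was left out. Under DMSO it became 0 with median scaling, 0 with array weights and 0 with only the groups compared, and ran from 1 to 8 when 1 array was left out. Limma's response counts of 0 stayed at 0 in wild-type cells, and ran from 0 to 4 on leaving out 1 array both in knockout cells and for the difference of responses, the 4 being Igf1r, Igf2r, Igfbp4 and Igfbp6 when knockout DMSO array 1 was left out and the weak array stood alone. Median scaling moved the median of all genes to 0.46 under c-di-GMP and -0.63 under DMSO, and relative to it Igfbp2 differed by -3.24 and -1.64, Igfbp3 by 2.44 and 2.26, Igfbp5 by 2.80 and 2.80 and Igfbp7 by -1.42 and -1.74, with adjusted p from 0.0788 to 0.81. Over all alternatives 112 of 152 called results and 622 of 694 uncalled ones kept their side of the threshold and size, and 22 uncalled ones passed. Of the called results of the named pathway genes 113 did so and 20 did not; median scaling ended each call of Irs2, Pik3cb and Foxo1 and the DMSO call of Igf2, whose c-di-GMP call it kept.

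Without background correction the c-di-GMP differences were -1.31 for Igfbp2, 1.22 for Igfbp3 and 1.32 for Igfbp5. With the replicate number as a block, 3 of the 9 genes were called in each genotype comparison, beside 1070 of 9541 genes under c-di-GMP and 944 under DMSO. Igfbp7 was not among the 3 (adjusted p = 0.055 under c-di-GMP and 0.0811 under DMSO). Among the named pathway genes, Irs2 lost its DMSO call with that block (adjusted p = 0.062). With every detected probe tested, Igfbp7 had an adjusted p of 0.0606 under DMSO. One alternative, chosen after seeing the data, renormalized the 7 arrays without the weak one. There the c-di-GMP differences were -0.83 for Igf2r and -0.71 for Igfbp6. Counts over all genes moved more: under c-di-GMP 1335 genes were called, 148 with median scaling, 4021 with array weights, 3933 with only the groups compared and 372 to 4239 without 1 array. Under DMSO these were 1214, 92, 274, 104 and 270 to 6119. For the wild-type response they were 57, 0, 492, 272 and 0 to 560, with 12 under the replicate block, 34 with detection on at least 4 arrays, 89 without background correction and 87 in the authors' table. In knockout cells 0 became 5480, and for the difference 4 became 4628, without knockout DMSO array 1. The slide could not be tried as a block, since no slide is named in the sources used here, and the fit of only the groups compared gives no difference of responses. Where a gene is undetected, signal over background limits its ratio to a bound.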
